A study of Mus musculus with 8 samples.

Results

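The genes described here encode the cytokines TNF, oncostatin M, IL-6, IL-10 and TGF-β1, the receptor subunits through which TNF and IL-6 act, and the feedback inhibitor A20. They were taken by gene symbol as Tnf, Osm, Il6, Il10, Tgfb1, Il6ra, Il6st, Tnfrsf1a, Tnfrsf1b and Tnfaip3, which are 10 of the 32285 genes counted. Their messages were measured by droplet single-cell RNA-seq of CD45.2+ cells sorted from perfused brain parenchyma of mice labelled 16 weeks old. WT mice were of the C57BL/6J strain. The App NL-G-F mice carry a knock-in of a humanised, mutated amyloid precursor protein gene, which is expressed from the endogenous mouse locus rather than from a transgene in chosen cells. Control mice of each genotype drank water, acute colitis mice drank 2% dextran sulphate sodium (DSS) for a week, chronic colitis mice were switched between 2% DSS and plain water every 5 days over 3 cycles, and food allergy mice were made allergic to ovalbumin. Each of these 8 groups was a single library, so a condition and its library cannot be told apart. Mice or other samples within a library were marked by hashtag antibodies, which gave 30 hashtag groups over the 8 libraries, and p-values over hashtag groups therefore measure the spread between samples that were processed in a library.

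As background, TNF binds the receptors TNFR1 (Tnfrsf1a) and TNFR2 (Tnfrsf1b) and activates NF-κB and MAP kinases, and A20 (Tnfaip3) is an NF-κB target whose protein edits ubiquitin chains and ends that signal. IL-6 binds its own receptor chain (Il6ra), which pairs with the shared signal transducer gp130 (Il6st), while oncostatin M uses gp130 with a different partner; gp130 signals through JAK kinases and STAT3. IL-10 and TGF-β1 restrain myeloid and lymphoid cells, and in the brain most of these cytokines are studied as products of microglia, border macrophages and infiltrating leukocytes.

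The libraries held 26988646 to 56307389 UMIs, and 49357 barcodes were called as cells, 4856 to 7198 a library, with a median of 2878 to 4133.5 UMIs per cell. Each cell was given a type by a gate on marker genes, so a name such as neutrophil means a cell that is neutrophil-like by its markers; 39327 cells (79.7%) with a type and at most 1 hashtag were used. Cells at odds with the CD45.2 sort were present in small numbers (222 fibroblast-like, 449 erythroid-like and 14 endothelial-like cells). Immature types, also at odds with the labelled tissue, were more numerous, with 3118 developing B cells, 1289 neutrophil precursors and 558 hematopoietic progenitors. Microglia, the resident macrophages of brain parenchyma, numbered 52. Of the distinct cell barcodes, 1438 of 47887 (3.003%) occurred in more than 1 library, with 31 to 72 shared by any pair. In T cells the summed level of 10 immediate-early genes, such as Fos, Jun and Egr1, split the hashtag groups at a 1.81-fold gap into 14 low groups (606 to 1689 CPM, UMIs scaled to a total of 1e+06) and 16 high groups (3052 to 6272 CPM). Every library held groups of each kind; these low and high sets were found from the data and are not groups of the study, and member levels are given by set below.

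Levels are CPM, the UMIs of a gene scaled to 1e+06 UMIs over the cells of a type in a library, and they are compared between cell types within a gene, never between genes. Means are given with the SD over the libraries that held at least 20 cells of the type.

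Tnf, on chromosome 17 (17:35199381-35202007, minus strand, GRCm38), was highest in mast cells among the 23 cell types ordered. Mast cells, tissue-resident cells that store TNF in granules, had 1023 CPM of Tnf in the WT control library, and 686 with acute colitis, 1042 with chronic colitis and 845 with food allergy in WT mice. In App NL-G-F mice they had 279 CPM at baseline, 341 with acute colitis, 564 with food allergy, and 432 CPM with chronic colitis, where there were 15 mast cells. The 4 WT libraries all lay above the 4 App NL-G-F libraries, each with 15 to 45 mast cells. How many of all genes separated the libraries in this way was not worked out. Mast cells were too few for a fit over hashtag groups, and the Tnf difference was not tested. A Tnf UMI was present in 134 of 242 mast cells (55.4%), at a median depth of 2562 UMIs per cell, against 0.385% of developing B cells at a median of 2613.5 UMIs.

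Mean Tnf was 683 ± 307 CPM in mast cells (SD, n = 7 libraries), 127 ± 81.9 in γδ T cells (n = 8), 126 ± 37.7 in macrophages (n = 8) and 70.6 ± 32.8 in neutrophils (n = 8). The mast cell level exceeded that of γδ T cells in 6 of 7 libraries, by 2.30 ± 1.42 on the log2(CPM + 10) scale (exact two-sided sign-flip permutation test over libraries, p = 0.03125; 0.1389 after Benjamini-Hochberg adjustment over 40 neighbouring pairs of the 10 genes). γδ T cells were above macrophages in 2 of 8 libraries, and these types did not differ beyond their spread (exact permutation p = 0.6797). Macrophages were above neutrophils in 8 of 8 libraries by 0.83 ± 0.51 (exact permutation p = 0.007812, adjusted 0.125). Across all 40 pairs, 12 had an unadjusted exact permutation p under 0.05 and 0 passed after adjustment, for which the smallest value was 0.125. Neutrophils are phagocytes that reach tissue quickly in acute inflammation. With 4831 cells, they carried 31.9% of the 5860 Tnf UMIs at a level below those of mast cells, γδ T cells and macrophages. In γδ T cells, an IL-17-producing population here by its leading genes, Tnf stood at 289 CPM in App NL-G-F control and 220 in App NL-G-F acute colitis. The other 6 libraries lay between 66.2 and 100 CPM. Over γδ T cell hashtag groups the median was 70.4 CPM in the low and 96.2 CPM in the high immediate-early set. Single groups reached 667 and 553 CPM, so a library value can rest on 1 group. γδ T cells were not among the fitted types.

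**Figure D1:**
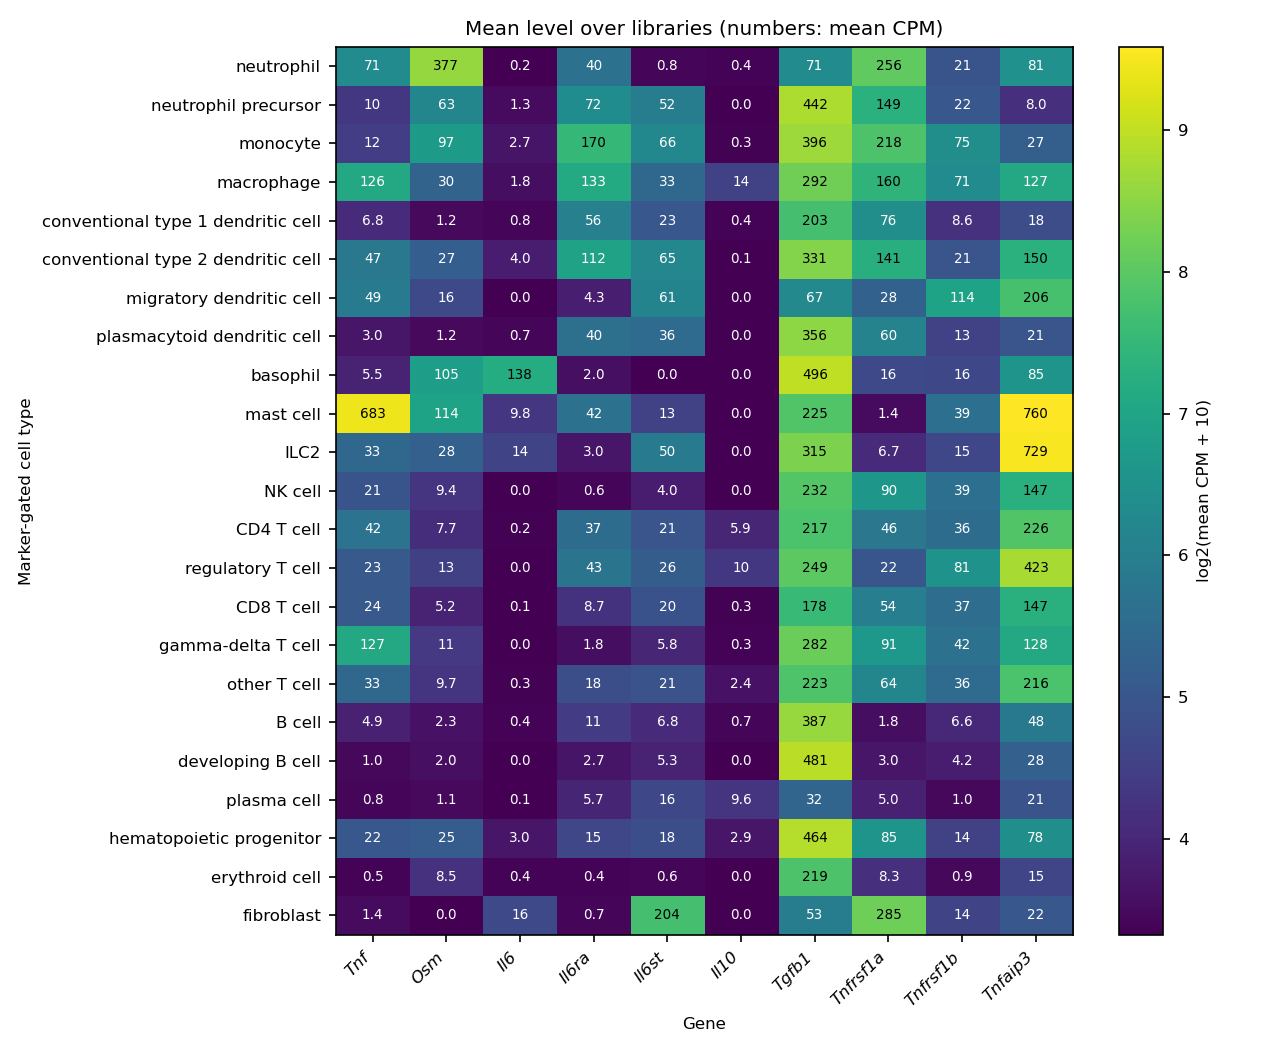
Mean level of each gene (columns) in each of the 23 marker-gated cell types (rows) over the libraries with at least 20 cells of the type; colour is log2(mean CPM + 10) and the printed numbers are mean CPM. Tnf is highest in mast cells (683), Osm in neutrophils (377), Il6 in basophils (138), and Tnfaip3 in mast cells (760) and ILC2 (729), while Tgfb1 is spread over most types and is low in neutrophils (70.9) and plasma cells (31.5).

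Osm (11:4236420-4241026, plus strand) encodes oncostatin M, a gp130 cytokine made by activated myeloid cells. Neutrophils held 65.1% of its 14354 UMIs, monocytes 14.3% and neutrophil precursors 10.5%. In WT mice the neutrophil level of Osm was 606 CPM at baseline, 530 with acute colitis, 299 with chronic colitis and 521 with food allergy. In App NL-G-F mice neutrophils had 364 CPM of Osm at baseline, 32.9 with acute colitis, 234 with chronic colitis and 429 with food allergy. The App NL-G-F acute colitis library was the lowest by a wide margin, and 1216 of its 1346 neutrophils came from a single hashtag group of the low immediate-early set. Neutrophils averaged 377 ± 187 CPM (n = 8) against 114 ± 102 in mast cells (n = 7), a difference of 1.98 ± 2.27 on the log2 scale that was seen in 6 of 7 libraries (exact permutation p = 0.04688, adjusted 0.1562). Mast cells, basophils (105 ± 112, n = 5) and monocytes (97.0 ± 74.7, n = 8) did not differ beyond their spread. An Osm UMI was found in 46.3% of neutrophils (median 6442 UMIs per cell), 21.9% after every cell was thinned to 1000 UMIs (328 shallower cells left out), and in 0.165% of developing B cells after the same thinning.

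Il6 (5:30013114-30019981, plus strand) was rare, with 522 UMIs in all, and its highest level was in basophils, granulocytes known for IL-4 and IL-6 release. Basophils held 37.9% of these UMIs and ILC2, the group 2 innate lymphoid cells, held 27.4%. In basophils Il6 was 88.1 CPM in WT control, 64.0 in App NL-G-F control, 183 in App NL-G-F acute colitis, 243 in App NL-G-F chronic colitis and 110 in App NL-G-F food allergy. The remaining WT libraries held 3 to 9 basophils, which is under the 20-cell limit, so no basophil comparison of treated with control WT mice can be made. The basophil mean was 138 ± 73.9 CPM (n = 5), next to 16.2 ± 25.6 in fibroblasts (n = 5) and 14.2 ± 5.70 in ILC2 (n = 8); basophils and fibroblasts were both measured in 2 libraries only, where the smallest p an exact test can give is 0.5. ILC2 and fibroblasts did not differ beyond their spread (exact permutation p = 0.6875). A UMI of Il6 was present in 43.1% of basophils (121 of 281; exact 95% interval 37.2 to 49.1%) at a median of 3521 UMIs per cell, 12% after thinning with 6 cells left out, and in 3.20% of ILC2. NK cells, γδ T cells, developing B cells and regulatory T cells had 0 Il6 UMIs, which in the 2689 NK cells allows a share of cells with a UMI of up to 0.112%.

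**Figure D2:**
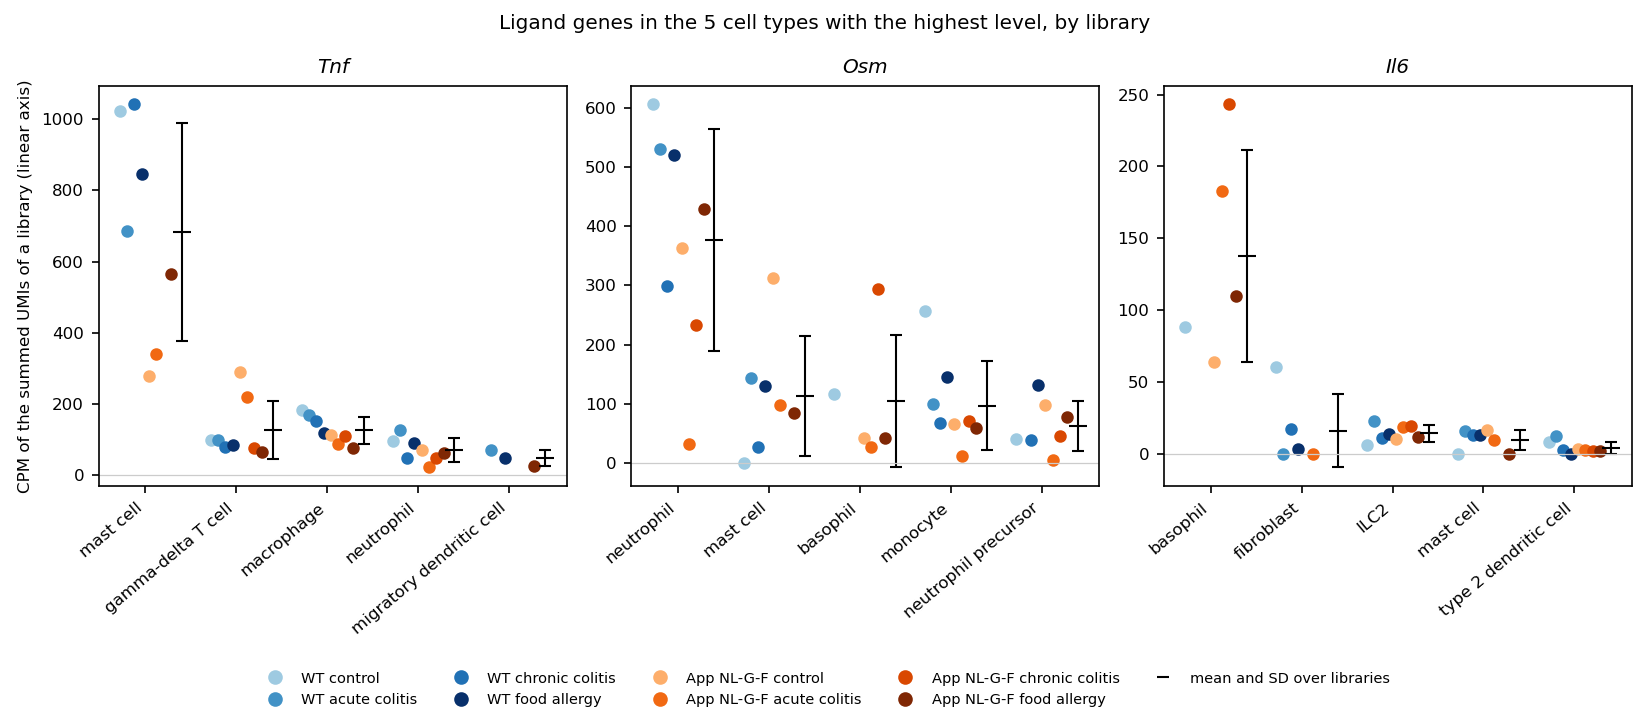
CPM of Tnf, Osm and Il6 in the 5 cell types with the highest mean of each; each point is a library with at least 20 cells of the type, coloured by genotype and treatment, and the bar is the mean with its SD over libraries. For Osm in neutrophils the App NL-G-F acute colitis library sits at 32.9 CPM and the other libraries between 234 and 606.

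Il10 (1:131019845-131024974, plus strand) gave 318 UMIs, of which plasma cells, the antibody-secreting cells, held 51.6% and macrophages 17.0%. The level was 13.6 ± 9.66 CPM in macrophages (n = 8), 10.1 ± 7.52 in regulatory T cells (n = 7), 9.61 ± 4.36 in plasma cells (n = 8) and 5.94 ± 3.46 in CD4 T cells (n = 8). No neighbouring pair in this order differed beyond its spread (exact permutation p from 0.07812 to 0.7344). Plasma cells were deeply covered: 11.03% of them had an Il10 UMI at a median of 19950.5 UMIs per cell, and 0.766% after thinning. Microglia were too few to be ordered.

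Tgfb1 (7:25687002-25705077, plus strand) was the most abundant of the 10 by UMI count (60497) and was detected in every cell type. It was highest in basophils (496 ± 50.4 CPM, n = 5), developing B cells (481 ± 41.5), hematopoietic progenitors (464 ± 71.9) and neutrophil precursors (442 ± 34.6, n = 7), and the first 4 types could not be separated by the spread over libraries (exact permutation p from 0.3125 to 0.8125 for neighbours). Among the lowest were neutrophils (70.9 ± 19.0, n = 8) and plasma cells (31.5 ± 6.62, n = 8). Neutrophil precursors lay between 377 and 489 CPM and neutrophils between 47.4 and 104 CPM, with no overlap over libraries.

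Among the receptors, Il6ra (3:89864059-89913196, minus strand), the IL-6-binding chain, was highest in monocytes at 170 ± 32.7 CPM, followed by macrophages at 133 ± 24.8 and type 2 conventional dendritic cells at 112 ± 15.4 (n = 8 each). Monocytes exceeded macrophages in 7 of 8 libraries by 0.33 ± 0.21 on the log2 scale (exact permutation p = 0.01562, adjusted 0.125). Il6st (13:112464070-112510086, plus strand), the shared gp130 chain, was highest in fibroblasts at 204 ± 53.7 CPM (n = 5), 1.55 ± 0.68 log2 units above monocytes in 5 of 5 libraries (exact permutation p = 0.0625, the smallest that 5 libraries allow). Monocytes, type 2 dendritic cells, migratory dendritic cells and neutrophil precursors had 52.5 to 65.7 CPM of Il6st. Neutrophils held little of it, with 35 Il6st UMIs in 4831 cells (0.78 ± 0.81 CPM, n = 8) against 52.5 ± 8.51 in their precursors (n = 7), whereas Il6ra was still at 40.2 ± 14.3 CPM in neutrophils.

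Tnfrsf1a (6:125349362-125362484, plus strand), the widely expressed death-domain TNF receptor, was highest in fibroblasts (285 ± 78.7 CPM, n = 5), neutrophils (256 ± 94.1), monocytes (218 ± 46.3) and macrophages (160 ± 45.1, n = 8 each). Fibroblasts and neutrophils did not differ beyond their spread (exact permutation p = 0.75), nor did neutrophils and monocytes (p = 0.1641, exact). Mast cells, which led for Tnf, had 1 Tnfrsf1a UMI in 242 cells. Tnfrsf1b (4:145213463-145246870, minus strand), the TNFR2 gene that regulatory T cells are known to use, was highest in migratory dendritic cells (114 ± 18.4 CPM, n = 3) and regulatory T cells (81.4 ± 29.9, n = 7), then monocytes (74.8 ± 26.8) and macrophages (71.3 ± 18.5, n = 8 each). Regulatory T cells and monocytes did not differ beyond their spread (exact permutation p = 0.5781).

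Tnfaip3 (10:19000910-19015657, minus strand) had 21028 UMIs, 37.9% of them in ILC2. Mast cells (760 ± 225 CPM, n = 7) and ILC2 (729 ± 290, n = 8) led the order and did not differ beyond their spread (0.03 ± 0.45 on the log2 scale, exact permutation p = 0.8594). ILC2 of WT mice had 1326 CPM at baseline, 741 with acute colitis, 931 with chronic colitis and 638 with food allergy. ILC2 of App NL-G-F mice had 750 CPM at baseline, 458 with acute colitis, 519 with chronic colitis and 471 with food allergy. The WT control library was the highest and the treated App NL-G-F libraries the lowest. In the tests over hashtag groups given below, no comparison passed for Tnfaip3 in ILC2. Log2 fold changes lay between -0.15 and -0.72 (edgeR adjusted p from 0.853 to 0.99958). Tnfaip3 in ILC2 also separated by immediate-early set. Whether the library levels depend on their mix of low and high groups was not tested. Regulatory T cells followed at 423 ± 148 CPM (n = 7), below ILC2 in 6 of 7 libraries (exact permutation p = 0.03125, adjusted 0.1389).

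The genes whose pattern over the 23 cell types was most like that of a member, by Pearson correlation of log2(CPM + 10) over library means and among 7670 genes, were as follows. For Tnf they were Klf6 (r = 0.84), Nfkbiz (0.83) and Nfkbid (0.79), and for Tnfaip3 they were Pnrc1 (0.88), Rgs1 (0.87) and Crem (0.84). For Osm they were Pygl (0.88), Tarm1 (0.88) and Cd300lb (0.84), and for Il6 they were D430036J16Rik (0.94), Prss34 (0.91) and Btnl9 (0.91), Prss34 being a basophil marker of the gate. Il6ra was nearest to Mcub (0.81), Il6st to Tnfaip1 (0.85), Tgfb1 to Rxrb (0.92), Tnfrsf1a to Fam234a (0.80) and Tnfrsf1b to Rnaset2a (0.77). Il10 stayed under 50 CPM in every type and was not compared. These are descriptions over 23 types that share libraries and depth.

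Promoter sequence from RefSeq (GRCm38.p6) was held for 8 of the 10 genes and not for Osm and Il10. In the 250 bases before each annotated start, both strands were searched for an NF-κB consensus and for the AP-1 motif TGANTCA. These occur in 7.25% and 6.75% of 32851 promoters of the same length. Bases further upstream and looser forms of the motifs were not searched, so a promoter without a match can still hold such sites. Il6 and Tnf are shown because the former held a match to each motif and the latter, whose level is compared between control libraries below, held none; capitals mark the matches, which lie 44 bases (NF-κB) and 249 bases (AP-1) before the Il6 start.
Il6, chr5:30012864-30013113, plus strand: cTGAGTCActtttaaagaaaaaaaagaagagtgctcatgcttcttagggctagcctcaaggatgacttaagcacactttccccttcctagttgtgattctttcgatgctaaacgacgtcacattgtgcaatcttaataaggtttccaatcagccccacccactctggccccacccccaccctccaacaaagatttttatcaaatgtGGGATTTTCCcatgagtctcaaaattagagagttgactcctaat
Tnf, chr17:35202008-35202257, minus strand: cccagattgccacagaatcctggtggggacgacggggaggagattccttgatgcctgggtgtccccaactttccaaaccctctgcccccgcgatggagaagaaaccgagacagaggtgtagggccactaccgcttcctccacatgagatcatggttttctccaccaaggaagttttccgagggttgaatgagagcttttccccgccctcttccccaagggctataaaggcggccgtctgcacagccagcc
Tnfaip3 held NF-κB matches 125 and 12 bases before its first RefSeq start and an AP-1 match 136 bases before it, Tgfb1 held an NF-κB match 140 bases before its start, and Il6ra, Il6st, Tnfrsf1a and Tnfrsf1b held none.

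Several members differed between the low and high immediate-early sets without overlap over hashtag groups of at least 20 cells. Osm in neutrophils was 23.1 to 55.7 CPM in the 7 low groups and 300 to 669 CPM in the 16 high groups, a 12.98-fold ratio of means. All 7 low groups with enough neutrophils came from App NL-G-F libraries, and in each of these 4 libraries the high groups were above the low ones. In App NL-G-F acute colitis, for example, the low group had 23.1 CPM and the 2 high groups had 361 and 516 CPM. Tnf in neutrophils followed the same split at 9.51 to 29.9 CPM against 42.7 to 141 CPM (4.82-fold), as did Tnfaip3 at 0 to 14.0 against 34.8 to 431 CPM. Thus 3 of the 10 members separated in neutrophils, where 1.93% of all genes tested did. The shares of genes, here and below, count only genes with at least 100 UMIs in the groups of a type. Il6 (7 UMIs), Il10 (8) and Il6st (35) were below this limit in neutrophils.

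Monocytes had 0 to 10.3 CPM of Osm in 7 low groups and 24.8 to 376 CPM in 16 high groups, with the high groups above in 5 of 5 libraries that held each kind; Osm was the 1 member of 10 that separated there, against 0.946% of genes. Neutrophil precursors separated for 2 members, Osm (0 to 3.84 against 39.9 to 179 CPM) and Tnfaip3 (1.78 to 6.503 against 7.45 to 15.3 CPM), against 0.775% of genes. Lymphoid cells separated for Tnfaip3 alone among the 10. In ILC2 the low groups had 95.7 to 368 CPM of Tnfaip3 and the high groups 464 to 1858 CPM (0.53% of genes separated), and in CD8 T cells the ranges were 35.6 to 73.5 and 125 to 549 CPM (0.228%). NK cells had 11.9 to 66.7 against 107 to 467 CPM of Tnfaip3 (0.228%), and γδ T cells 9.45 to 56.8 against 88.6 to 250 CPM (0.165%). Hematopoietic progenitors had 4.38 to 41.1 CPM of Tnfaip3 in 5 low groups and 80.6 to 205 in 3 high groups (3.37% of genes), and they ran the other way for Tnfrsf1a, at 99.97 to 117 CPM in the low and 48.3 to 88.5 CPM in the high groups (3.18% of genes). Tnfaip3 overlapped between the sets in monocytes, CD4 T cells and B cells, and Tgfb1 overlapped in neutrophils (45.9 to 95.1 against 44.0 to 141 CPM). Tnf in monocytes overlapped as well, at 0 to 16.0 CPM in low and 0 to 42.0 CPM in high groups.

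**Figure D3:**
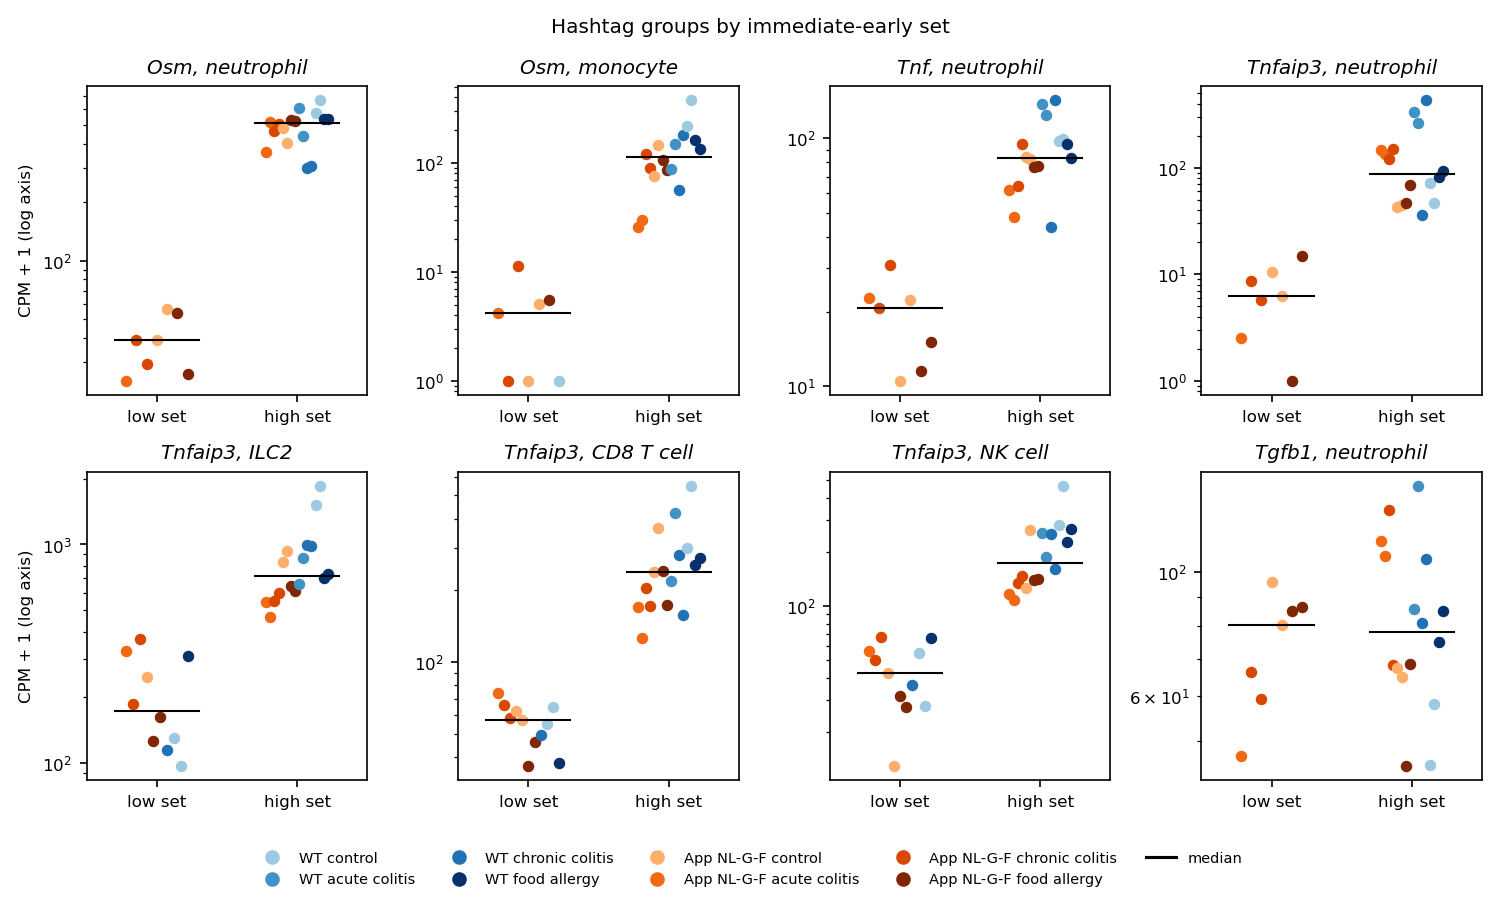
CPM + 1 on a log axis of Osm, Tnf, Tnfaip3 and Tgfb1 in named cell types; each point is a hashtag group of at least 20 cells, placed by its low or high immediate-early set and coloured by library, and the line is the median. Osm in neutrophils is 23.1 to 55.7 CPM in the low set and 300 to 669 CPM in the high set, while Tgfb1 in neutrophils overlaps between the sets.

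The treatments were compared with the control of the same genotype, and the App NL-G-F control with the WT control, by edgeR quasi-likelihood tests over hashtag groups in 8 cell types (neutrophils, monocytes, macrophages, NK, CD4, CD8 and B cells, and ILC2). The 10 members gave 343 tests, of which 39 had an unadjusted p under 0.05 and 2 passed at an adjusted p under 0.05 (Benjamini-Hochberg over all genes of the cell type). Il10 was too low for any of these types and Il6 was tested in ILC2 alone. WT acute colitis gave 0 called members of 49 tests (7 unadjusted; 1.61% of all gene tests called), WT chronic colitis 0 of 49 (8 unadjusted; 1.87%) and WT food allergy 0 of 49 (4 unadjusted; 1.02%). App NL-G-F acute colitis gave 0 of 49 (5 unadjusted; 0.131%), App NL-G-F chronic colitis 0 of 49 (5 unadjusted; 0.0254%) and App NL-G-F food allergy 0 of 49 (2 unadjusted; 0.0234%). The App NL-G-F control against the WT control gave 2 of 49 (8 unadjusted), where 1.73% of all gene tests were called. The 3 WT comparisons share their control library, as do the 3 App NL-G-F ones. The difference between the genotypes in each treatment's effect was tested 147 times over the members, with 0 called, 8 at an unadjusted p under 0.05 and a smallest adjusted p of 0.301 (edgeR).

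Both calls were for Tnf. In monocytes Tnf was 16.0, 42.0 and 32.0 CPM in the 3 WT control hashtag groups and 0, 7.28, 11.6 and 6.39 CPM in the 4 App NL-G-F control groups. The monocyte level in App NL-G-F control was lower by a log2 fold change of -2.19 (SE 0.45, edgeR adjusted p = 0.0081721), where 1.93% of monocyte genes were called. In NK cells Tnf was 27.1, 36.0, 21.2 and 31.4 CPM in the WT control groups. It was 9.46, 3.96, 8.09 and 2.65 CPM in the App NL-G-F control groups. How many of all genes separated the control groups without overlap was not worked out. The log2 fold change in NK cells was -1.94 (SE 0.54, edgeR adjusted p = 0.044339; 2.67% of NK genes were called). These levels rest on 99 and 23 Tnf UMIs in monocytes and on 35 and 9 in NK cells of the WT and App NL-G-F control libraries. Neutrophils (-0.64), macrophages (-0.57), CD4 T cells (-1.14) and ILC2 (-2.01, edgeR adjusted p = 0.537) had values of the same sign for Tnf that did not pass, while CD8 T cells (0.01) and B cells (0.11) lay near 0.

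Tnf RNA outside cells, measured in empty droplets, stood at 79.3 CPM in the WT control library and 61.0 in WT food allergy. The other 6 libraries had 12.6 to 19.2 CPM, so this level was higher in WT control than in App NL-G-F control. It rests on few Tnf UMIs, since the droplets held 214393 UMIs in WT control and 703186 in App NL-G-F control. In both control libraries it was above the Tnf level of every monocyte and NK group given above. Its part in the Tnf difference was not tested. Developing B cells, where Tnf was low, had 0 Tnf UMIs in 740 cells of the WT control library (allowing a share of up to 0.405%) and 2 UMIs in 563 cells of App NL-G-F control. Their median depth was 2613.5 UMIs per cell against 8397 in monocytes, and carry-over into monocytes or NK cells was not estimated. The 2 genotypes also differed in their hashtag groups, since of the 3 WT control monocyte groups 1 was of the low immediate-early set and of the 4 App NL-G-F groups 2 were. With the set as a covariate the log2 fold change was -1.98 in monocytes (edgeR adjusted p = 0.00358) and -1.97 in NK cells (adjusted p = 0.0280). Leaving out WT control hashtag 6 ended the monocyte call (log2 fold change -1.86, edgeR adjusted p = 0.136), and the NK call was lost in 13 of the fits that each left out 1 hashtag group (adjusted p from 0.0253 to 0.154). Over all these fits the log2 fold change of Tnf stayed between -2.46 and -1.86 in monocytes and between -2.37 and -1.66 in NK cells.

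**Figure D4:**
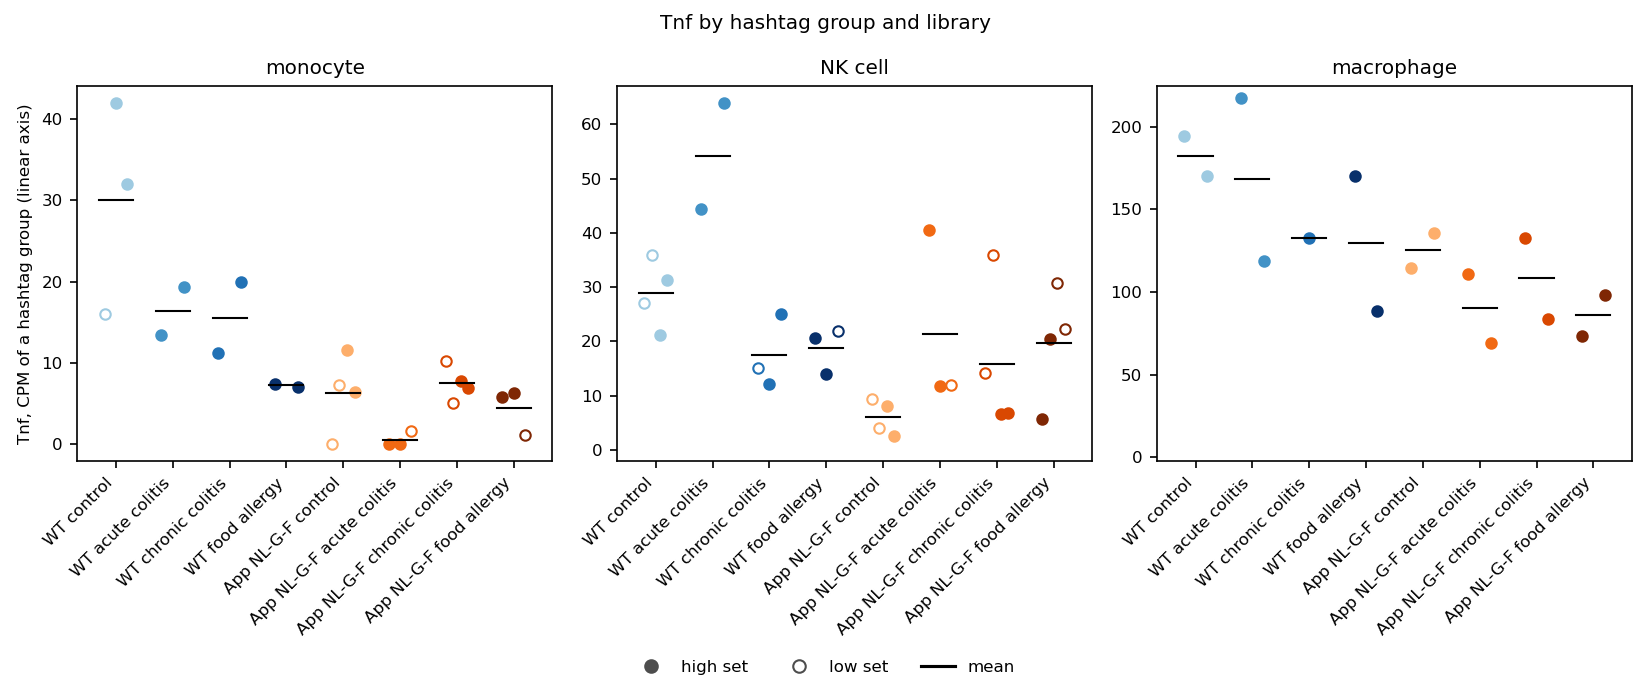
CPM of Tnf in monocytes, NK cells and macrophages by library; each point is a hashtag group of at least 20 cells, filled for the high and open for the low immediate-early set, and the line is the mean of a library. WT control groups lie at 16.0 to 42.0 CPM in monocytes and App NL-G-F control groups at 0 to 11.6 CPM.

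Members that did not pass but had the lowest adjusted p-values in the treatment comparisons included Tnfaip3 in macrophages of WT food allergy (log2 fold change -1.32, edgeR adjusted p = 0.0661) and WT acute colitis (-0.93, adjusted p = 0.0920). Tnfrsf1a in monocytes of WT chronic colitis had -0.85 (edgeR adjusted p = 0.0793), and Tnf in monocytes of WT food allergy had -2.15 (edgeR adjusted p = 0.0858). Tnfrsf1a in neutrophils of WT chronic colitis had -1.43 (edgeR adjusted p = 0.159). Il6 in ILC2 had a value of 2.10 in WT acute colitis (edgeR adjusted p = 0.169), where the 2 hashtag groups were at 23.3 and 25.8 CPM and the 4 WT control groups between 2.10 and 15.3 CPM.

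With the immediate-early set as a covariate, WT chronic colitis against WT control gave 7 called members. In monocytes of WT chronic colitis, where 17.6% of all genes were then called, Tnfaip3 (-2.14), Osm (-1.63), Tnf (-1.54) and Tnfrsf1a (-0.93) were lower and Il6st (0.86) was higher, with edgeR adjusted p-values of 0.00235 to 0.0251. In neutrophils, where 1.7% of genes were called, Tnfrsf1a (-1.43, edgeR adjusted p = 0.0176) and Osm (-1.10, adjusted p = 0.0400) were lower. In WT food allergy Tnf was lower in monocytes (-2.33, edgeR adjusted p = 0.00300), where 1.64% of genes were called. The monocyte groups of these treated WT libraries were all of the high set, so that in them the set's term rests on the other libraries.

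The other genes of these pathways were tested in 6 lists, and the lower calls, 8 in all, are given here; all but that for Zfp36 were in macrophages. Of all macrophage genes tested, 3.53% were called for acute colitis in WT mice, 1.07% for acute colitis in App NL-G-F mice and 0.746% for WT chronic colitis, and of all B cell genes 1.01% were called in WT food allergy. Socs3, the feedback inhibitor of gp130 signalling, was lower in macrophages of WT acute colitis (log2 fold change -1.73, edgeR adjusted p = 0.000692) and App NL-G-F acute colitis (-2.27, adjusted p = 0.000456). In WT chronic colitis, where macrophages came from 1 hashtag group that was assumed to vary like the groups of the other libraries, Socs3 had a log2 fold change of -2.28 (edgeR adjusted p = 0.0456). Stat3, the main transcription factor downstream of gp130, was lower in macrophages of App NL-G-F acute colitis (-1.21, edgeR adjusted p = 0.0417). These made 4 lower calls in the 490 tests of the JAK-STAT3 list, the WT chronic colitis value included. The NF-κB feedback list of 11 genes had 3 lower calls in 567 tests: Nfkbia in WT acute colitis macrophages (-0.83, edgeR adjusted p = 0.0138), Nfkbiz in App NL-G-F acute colitis macrophages (-1.01, adjusted p = 0.0315) and Zfp36, also 1 of the 10 immediate-early genes, in WT food allergy B cells (-0.79, adjusted p = 0.0381). The TNF family list of 14 genes had 1 lower call in 350 tests, Tnfsf9 in WT acute colitis macrophages (-2.14, edgeR adjusted p = 0.0167). The lists for TNF receptor signalling (16 genes, 791 tests), gp130 ligands and receptors (13 genes, 126 tests) and IL-10 and TGF-β signalling (19 genes, 609 tests) had 0 calls by edgeR. Macrophages were fitted with 2 hashtag groups in every library other than WT chronic colitis.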

How the data were processed

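Droplet libraries were made with a 5′ kit and, per the submitters' processing notes, processed with Cell Ranger 6.1.2 against mm10 (the matrix headers name Cell Ranger 4). The deposited values are raw UMI counts per gene and barcode and hashtag counts, which the authors left unfiltered. The genome positions are from GENCODE vM21 on GRCm38.

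Cells were called here by an order-of-magnitude cutoff (3000 expected cells, percentile 99, divisor 10) plus a test of barcodes with at least 500 UMIs against droplets of rank 45000 to 90000 (1000 simulations, FDR 0.01), then filtered at 200 genes and 5% mitochondrial UMIs. Of the cells, 4593 with several hashtags were left out as doublets and 1391 with none entered only the sums per library. By the gate, 5248 fitted more than 1 type and 1228 had fewer than 2 detected markers of every type. The gate needed at least 2 detected markers of a type and a score 1.25 times the next; its scoring rule was set after the files had been seen. Summed counts were tested with edgeR 4.0.16 (R 4.3.3; at least 20 cells per hashtag group, TMM, all groups of a cell type in a fit), checked on simulated counts, with DESeq2 1.42.0 as an alternative. Orders of cell types used exact sign-flip permutation tests over libraries on log2(CPM + 10). Shares and intervals cover counting error only. The 10 genes, the pathway lists and the immediate-early sets were chosen with earlier results of these data known. The genes named were the members in every type, the 3 most alike genes of each, and up to 3 called genes of each pathway list. A result of the JAK-STAT3 list is not reported here.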

Additional observations from a re-analysis of the deposited data

Results flagged for a closer look

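A library that stood apart from the others was looked for in 47 sets of 4 to 8 libraries, 1 for each gene and leading cell type, and 7 were found; chance alone flags about 1 in 20. Fibroblasts had 60.17 CPM of Il6 in WT control, where there were 24 of them, and 0 to 17.28 in the other 4 libraries. Monocytes of WT acute colitis had 242.9 CPM of Il6ra (136 to 182.1 elsewhere) and 136.5 CPM of Tnfrsf1b (54.03 to 81.53 elsewhere). Neutrophil precursors of WT control had 90.75 CPM of Il6ra (63.87 to 74.95 elsewhere), and monocytes of WT control had 323.2 CPM of Tnfrsf1a (175.1 to 227.9 elsewhere). Macrophages of App NL-G-F control had 263.1 CPM of Tnfrsf1a (112.5 to 168.1 elsewhere). Hematopoietic progenitors of WT food allergy had 15.4 CPM of Il10 (0 to 3.627 elsewhere), a level from 40 cells that rests on few UMIs.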

How the results depend on the processing

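No paired analysis was possible because each group is 1 library and no label says that hashtag numbers, which recur across libraries, pair their samples; cell types were compared within libraries. The top step of each cell type order was recomputed under other cell calling, filters, gates, summaries and pseudocounts: 59 kept their direction and side of an unadjusted p of 0.05, 2 were no longer under it and 3 reversed. When each library was summarised by its average hashtag group, the mast cell lead in Tnf was 2.14 and the neutrophil lead in Osm 1.66 (3 libraries each, exact permutation p = 0.25, the smallest that 3 libraries allow), and the fibroblast lead over neutrophils in Tnfrsf1a became -0.24. The mast cell lead over ILC2 in Tnfaip3 became -0.033 with at least 3 markers and -0.027 with cells of several hashtags kept. Leaving out each library in turn (added after the data had been seen) kept 40 values on their side, left 12, all for Tnf or Osm, above 0.05 (exact permutation p from 0.0625 to 0.09375) and reversed 3, with ranges of 2.09 to 2.69 for Tnf, 1.32 to 2.53 for Osm, 0.484 to 4.27 for Il6, 0.306 to 0.393 for Il6ra, 1.36 to 1.81 for Il6st, 0.199 to 0.488 for Il10, 0.028 to 0.094 for Tgfb1, -0.11 to 0.29 for Tnfrsf1a (negative without App NL-G-F acute colitis), 0.348 to 0.914 for Tnfrsf1b and -0.047 to 0.187 for Tnfaip3 (-0.047 without App NL-G-F control, -0.013 without App NL-G-F acute colitis). The cutoff alone gave no value for 5 genes.

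Called members, in the order WT acute colitis, WT chronic colitis, WT food allergy, App NL-G-F acute colitis, App NL-G-F chronic colitis, App NL-G-F food allergy and App NL-G-F control against WT control, were 3, 4, 2, 1, 2, 1 and 7 with no filter on low counts, against 0, 0, 0, 0, 0, 0 and 2 as reported. With at least 50 cells they were 1 for WT acute colitis, 3 for WT chronic colitis, 1 for WT food allergy and 4 for App NL-G-F control, and with the cutoff alone 2, 2, 2 and 4. The set covariate gave 7 for WT chronic colitis and 1 for WT food allergy, DESeq2 gave 1 for WT chronic colitis and 1 for App NL-G-F control, and at least 3 markers gave 1 for App NL-G-F control. Leaving out each hashtag group gave 1 to 2 for App NL-G-F control, 0 to 2 for WT chronic colitis, 0 to 1 for WT food allergy and 0 for the others. The cause was not tested. Shares of all genes called were worked out for the reported and covariate fits alone. Whether the counts under the other settings are particular to the members can therefore not be told. At least 3 markers ended the NK call for Tnf (edgeR adjusted p = 0.417), and DESeq2 gave it no adjusted p. Levels near 10 CPM, as for Tnf in NK cells, rest on few UMIs, which limits their precision.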
